A study of Mus musculus with 104 samples.

Results

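The nuclear genes for the mitochondrial respiratory chain and the ATP synthase were followed in whole mouse lung after inhalation of phosgene (CG), a toxic industrial gas that injures the lung. A gene was a member if a probe set with 1 gene symbol carried a symbol that starts with Nduf, Sdh, Uqcr, Cox4, Cox5, Cox6, Cox7, Cox8 or Atp5, and each gene was represented by its probe set of highest mean. The rule found 87 of the 12393 genes measured, through 160 of 20380 probe sets. Complex I had 39 members, complex II 7, complex III 8, complex IV 16 and complex V 17. Of these, 8 are assembly factors rather than subunits (Ndufaf1, Ndufaf3, Ndufaf4, Ndufaf5, Ndufaf7, Sdhaf1, Sdhaf2 and Sdhaf4).

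The study hybridised lung RNA to 104 oligonucleotide chips, 2 for each of 52 numbered lungs. Air and phosgene lungs were taken at 0.5, 1, 4, 8, 12, 24, 48 and 72 h, with 3 lungs in each group except 4 in air at 48 h, and 3 lungs were untreated. The phosgene groups carry the dose label 32 mg with no volume. The labels print the times without a unit, and reading them as hours rests on knowledge of the study. They give no strain, sex or age, and they do not state that each lung number is a separate animal, so p-values measure the spread between numbered lungs.

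The respiratory chain passes electrons from NADH through complex I, or from succinate through complex II, to ubiquinone, complex III, cytochrome c and the oxygen-consuming complex IV. Proton pumping by complexes I, III and IV drives the ATP synthase, which is complex V. Most subunits are encoded in the nucleus and imported, while a core set is made from mitochondrial DNA and lies outside the rule. Several complex IV subunits have tissue isoforms, among them Cox4i2, a form of lung and of low oxygen, and the heart and muscle forms Cox6a2, Cox7a1 and Cox8b.

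Values are linear intensities that were scaled to the same trimmed mean on every chip, so each is relative to the other transcripts of that chip. Chip medians ran from 68.2 to 90.1. The 2 chips of a lung differed by a median of 0.14 on the log2 scale over the members, and the within-group standard deviation (SD) had a median of 0.17 over the members and 0.20 over all genes. Markers of the lung were bright in the samples, with mean intensities of 153 to 6174 for 9 alveolar type 2 cell genes and of 2632 to 6056 for 5 club cell genes. Of the air lungs, 5 carry numbers apart from the rest (replicate 3 at 8 h, replicates 3 and 4 at 48 h, replicates 2 and 3 at 72 h), and results that rest on them are given with and without them. Their numbers follow directly on those of the untreated lungs. All phosgene lungs carry lower numbers than all air lungs, so lung number and treatment cannot be told apart. In whole lung, fewer cells of a type and less RNA per cell cannot be told apart.

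As a group the members lay below their air controls at 1 and 8 h and above them at 48 and 72 h, by small amounts. The median member change, phosgene minus air on the log2 scale, was -0.12 at 1 h against -0.03 over all genes, -0.14 at 8 h against -0.07, 0.12 at 48 h against -0.02, and 0.18 at 72 h against 0.01. The member change was below 0 for 71 of 87 genes at 1 h and 70 at 8 h, and above 0 for 71 of 87 at both 48 and 72 h. At the other times the median was -0.04 at 0.5 h against -0.01 over all genes, 0.02 at 4 h against -0.08, 0.06 at 12 h against -0.06 and 0.03 at 24 h against -0.04, with 30, 46, 55 and 52 members above 0. These medians come from members that share lungs and chips, and carry no test.

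The level of the group can be seen in each lung as the median, over the 87 genes, of the deviation from the gene's mean over all lungs. This was 0.13, 0.16 and 0.22 (log2) in the 3 phosgene lungs of 48 h and 0.11, 0.15 and 0.23 in those of 72 h. The air lungs ranged from -0.03 to 0.06 at 48 h and from -0.012 to -0.0015 at 72 h, so neither pair of groups overlapped. The phosgene lungs of 8 h were close together, from -0.092 to -0.043, whereas the air lungs of 8 h spread from -0.12 to 0.22 on both sides of them. At 1 h the air lungs ranged from -0.0004 to 0.15 and the phosgene lungs from -0.12 to 0.007, which overlap. Without replicate 1 of the air lungs of 1 h, the highest of them, the median member change at 1 h was -0.07. The untreated lungs reached from about 0 to 0.16, which overlaps the phosgene lungs of 48 and 72 h.

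**Figure D1:**
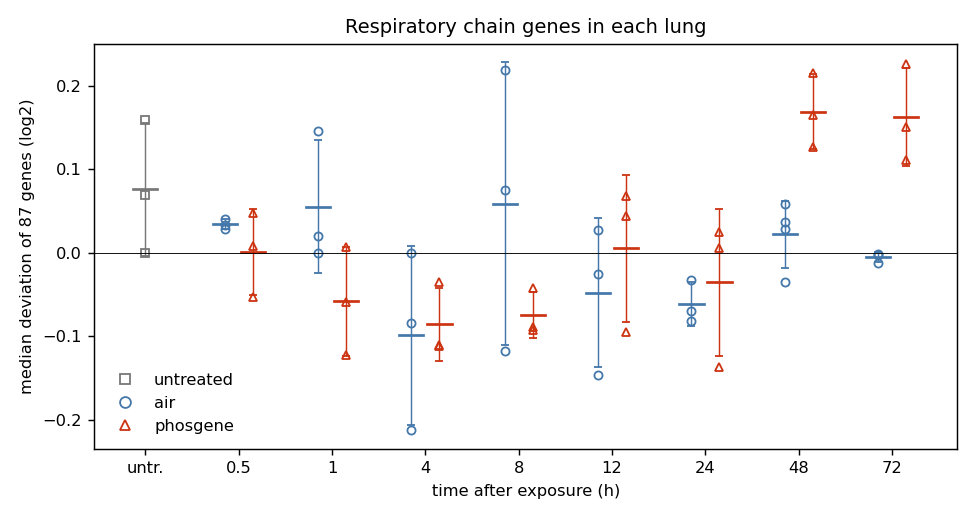
Median over 87 respiratory chain genes of the log2 deviation from each gene's mean over all lungs (y axis), for untreated lungs (grey squares) and for air (blue circles) and phosgene lungs (red triangles) by time in hours (x axis, not to scale). Each point is 1 lung, bars are the group mean and error bars the SD. The phosgene lungs of 48 and 72 h lie above all air lungs of their time.

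Tested gene by gene, few members differed from air at a single time. With limma and Benjamini-Hochberg adjustment over all genes, 3 members were called at 8 h, all lower, when 8.75% of all genes were called and 4.83% were called lower. At 48 h 7 members were called, all higher, which is 8.05% of the members against 5.44% of all genes in either direction and 2.78% higher. At 72 h 6 members were called, all higher, 6.9% of the members against 4.04% of all genes in either direction and 2.15% higher. The 16 calls fell on 11 genes.

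No member was called by limma at the other 5 times, when the share of all genes called was 0.29% at 0.5 h, 0.839% at 1 h, 5.51% at 4 h, 1.83% at 12 h and 1.98% at 24 h. At an unadjusted p under 0.05 the members numbered 1 higher and 2 lower at 0.5 h, 9 lower at 1 h, 3 higher and 6 lower at 4 h, and 4 higher and 1 lower at both 12 and 24 h. The 9 lower members of 1 h are 10.3% of the members against 4.7% of all genes, and the 6 lower members of 4 h are 6.9% against 13.3%. Over all genes the share lower was 1.48% at 0.5 h, 8.6% at 12 h and 6.94% at 24 h, and the share higher was 2.08%, 3.41%, 7.53%, 6.29% and 4.87% at the 5 times. Members whose phosgene and air lungs did not overlap numbered 17 higher and 4 lower at 48 h, and 26 higher and 3 lower at 72 h. Over all genes that share was 7.25% higher and 9.47% lower at 48 h, and 10.1% higher and 8.96% lower at 72 h. At 8 h 16 members were lower without overlap and 0 higher, where 14.5% of all genes were lower and 8.2% higher.

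**Figure D2:**
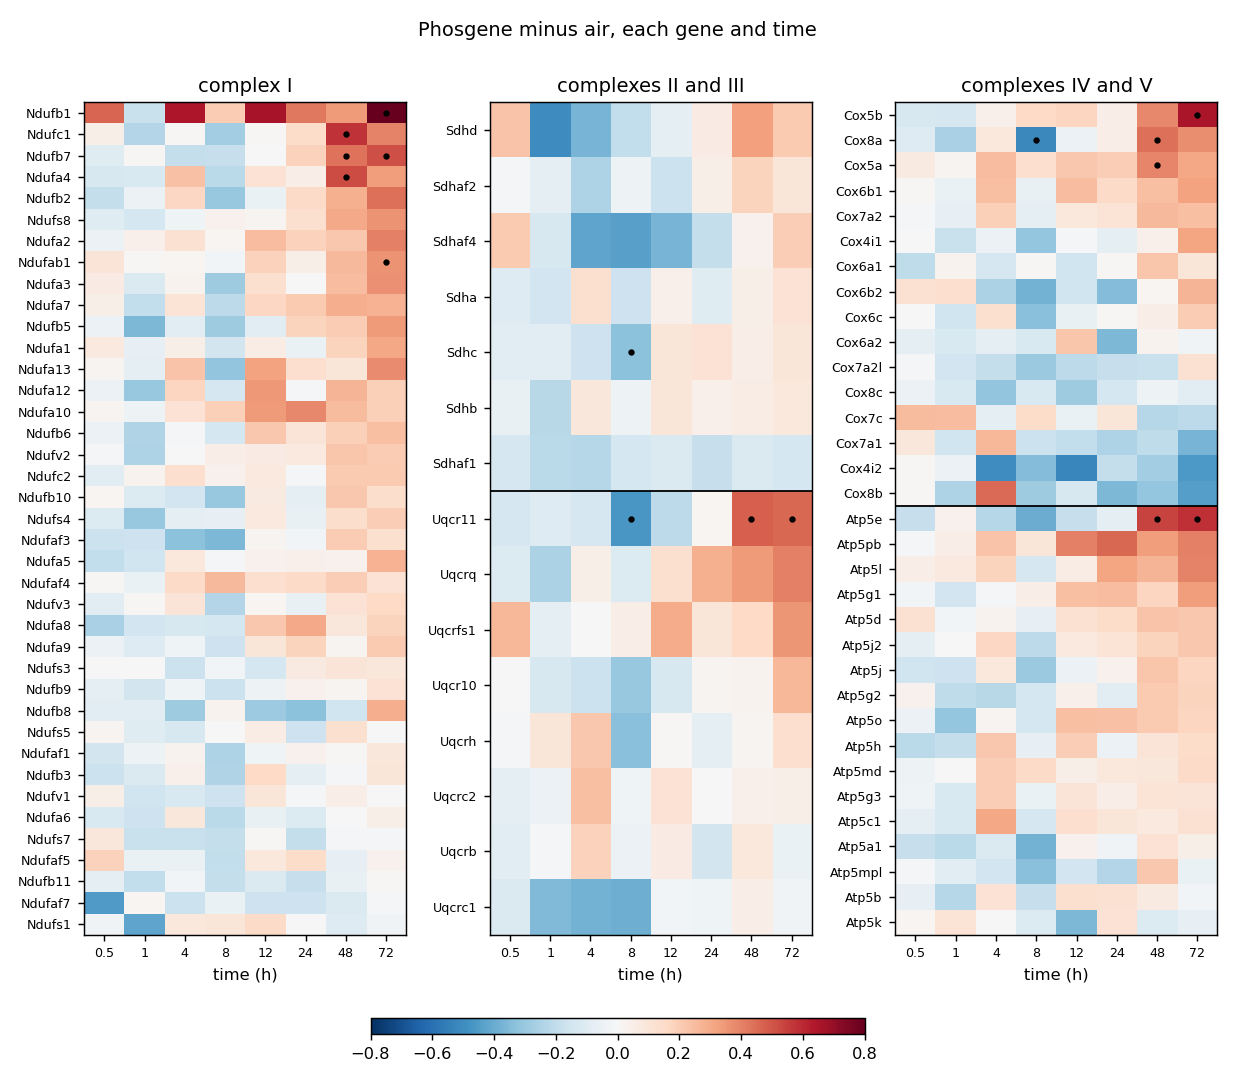
Log2 change, phosgene minus air, of each of the 87 genes (rows, by complex and then by mean change at 48 and 72 h) at each time in hours (columns). Red is higher after phosgene and blue lower, and black dots mark adjusted p under 0.05 (limma, Benjamini-Hochberg), which are 3 genes at 8 h, 7 at 48 h and 6 at 72 h.

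The calls at single times were fragile. Without the 5 air lungs numbered apart, 1 member was called at 8 h, 1 at 48 h and 0 at 72 h, while the median change went from -0.14 to -0.07 at 8 h and was 0.16 at 48 h and 0.19 at 72 h. Among the 16 calls, that of Cox5a at 48 h was kept (0.55, adjusted p = 0.0148) and each of the others was lost. With hybridization day as a term in limma, the calls of Cox8a (adjusted p = 0.146) and Sdhc (0.158) at 8 h were lost, and at 72 h those of Atp5e (0.234), Ndufab1 (0.362), Ndufb1 (0.241), Ndufb7 (0.187) and Uqcr11 (0.0714), while all 7 of 48 h were kept. In that fit the changes of the lost calls were -0.38 (Cox8a) and -0.26 (Sdhc) at 8 h, against -0.52 and -0.33 without day. At 72 h they were 0.42 (Atp5e), 0.29 (Ndufab1), 0.94 (Ndufb1), 0.47 (Ndufb7) and 0.51 (Uqcr11). Without day those were 0.58, 0.36, 0.84, 0.52 and 0.46. The fit with day called 7 members lower at 8 h, 15 higher at 48 h and 3 higher at 72 h. It used 97 single chips with lungs as random blocks, so its unit differed from the lung means of the main fit. With the untreated lungs as controls in place of the air lungs, 0 members were higher at 48 or 72 h and the medians were 0.09 and 0.08.

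Within a hybridization day, where 1 phosgene chip can be set against 1 or 2 air chips of the same time, the median member change at 48 h was 0.29, 0.094 and 0.087 on 3 days, with 63, 56 and 54 members of 87 above 0. At 72 h it was 0.20 and 0.29 on 2 days, with 64 and 69 members above 0. At 8 h it was -0.36 and -0.26 on 2 days, with 77 and 72 members below 0. At 12 h it was -0.095 and -0.12 on 2 days, with 60 and 62 members below 0. That is the opposite sign to the median of 0.06 from all lungs of 12 h. At 4 h it was 0.13 and -0.012 on 2 days. It was below 0 on every day at 0.5 h and above 0 on every day at 24 h. At 1 h it was -0.29, -0.0099, -0.15 and -0.033 by day, with 64, 47, 53 and 47 members below 0. Over all genes the medians of those days were -0.079, -0.062, -0.065 and 0.03.

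Complexes I and V had the largest medians at 48 h. The median change was 0.18 for complex I, with 31 of 39 members above 0, and 0.18 for complex V, with 16 of 17 above 0. Complex III had a median of 0.07 with 8 of 8 above 0, complex II 0.05 with 6 of 7, and complex IV 0.03 with 10 of 16. At 72 h the medians were 0.20 for complex I, 0.10 for II, 0.20 for III, 0.16 for IV and 0.17 for V. Complex IV had the largest share of members below 0, 6 of 16 at both times, and these included its tissue isoforms Cox4i2, Cox7a1 and Cox8b. At 8 h every complex had a negative median, from -0.14 for complex V to -0.21 for complex III. Differences between complexes were not tested.

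**Figure D3:**
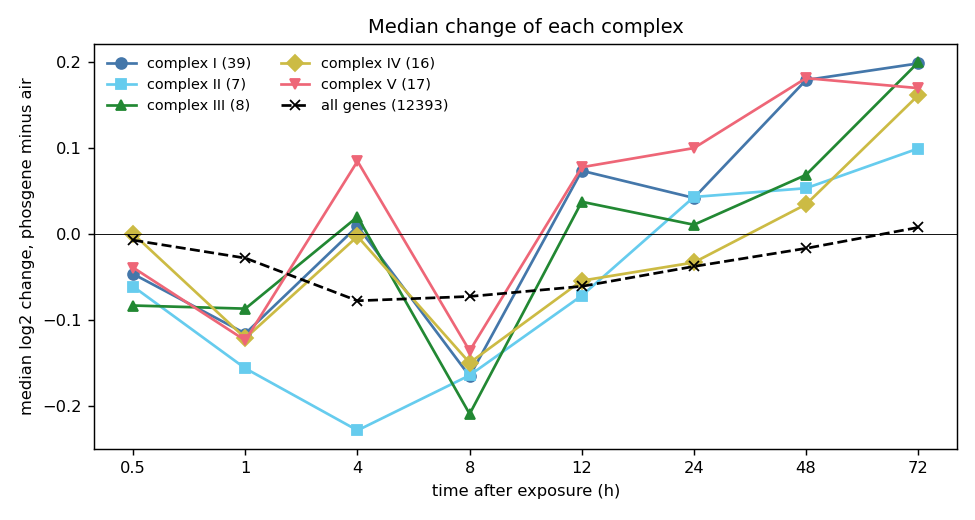
Median log2 change, phosgene minus air (y axis), of the members of each complex and of all genes (dashed) at each time in hours (x axis, not to scale), with the number of genes in brackets. All 5 complexes lie under all genes at 8 h and above them at 48 and 72 h.

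The difference between phosgene and air changed with time, by an F test over the differences between times, for 5 members (5.75%) against 3.99% of all genes. These were Uqcr11, Cox8a, Ndufb5, Atp5e and Ndufb7. Uqcr11 is a small subunit of complex III, Cox8a the ubiquitous form of a small transmembrane subunit of complex IV, Atp5e the epsilon subunit of the central stalk of the ATP synthase, and Ndufb5 and Ndufb7 are accessory subunits of the membrane arm of complex I. Without the 5 air lungs numbered apart, 0 members passed this test, with adjusted p from 0.0594 (Cox8a) to 0.547 (Ndufb7) for these 5 (limma).

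Uqcr11 had the lowest adjusted p of these. Its intensity at 8 h was 379.8, 461 and 442 in the air lungs and 275, 316 and 326 in the phosgene lungs, and at 48 h it was 375, 410.3, 323 and 319.9 in air and 502, 458 and 537 after phosgene. At 72 h it was 370.1, 347 and 412 in air and 508, 511 and 546 after phosgene. The groups did not overlap at these 3 times, and the order reversed between 8 h and the later times. The log2 change was -0.46 ± 0.13 (standard error, SE) at 8 h, adjusted p = 0.0147, 0.48 ± 0.12 at 48 h, adjusted p = 0.00853, and 0.46 ± 0.13 at 72 h, adjusted p = 0.0262 (limma). At the other 5 times the adjusted p was 0.446 to 1, and the change with time had adjusted p = 0.00162. Leaving out any 1 lung kept that last call, and 3 of 6, 6 of 7 and 2 of 6 leave-outs kept the calls at 8, 48 and 72 h. Without the 5 air lungs numbered apart the changes were -0.44, 0.34 and 0.48, with adjusted p = 0.0569, 0.231 and 0.324 (limma).

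Cox8a followed the same order. It measured 898, 857 and 1085 in air and 565, 603 and 794 after phosgene at 8 h, where the groups did not overlap, for a log2 change of -0.52 ± 0.14, adjusted p = 0.0154. At 48 h it measured 637, 910.1, 695 and 567 in air and 917, 912 and 1002 after phosgene, a log2 change of 0.44 ± 0.13, adjusted p = 0.0389. The second air lung of 48 h came close to the lowest phosgene lung without reaching it. The next brightest probe set of Cox8a gave -0.53 at 8 h, adjusted p = 0.0399, and 0.53 at 48 h, adjusted p = 0.0367. The change with time had adjusted p = 0.0137 (limma), which leaving out any 1 lung kept. The calls at 8 and 48 h were kept in 3 of 6 and 1 of 7 leave-outs. Without the 5 air lungs numbered apart the change was -0.41 at 8 h, adjusted p = 0.0784, and 0.30 at 48 h, adjusted p = 0.321.

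Atp5e differed at the 2 late times. Its intensity at 48 h was 441, 476, 315 and 354 in air and 522, 587 and 618 after phosgene, and at 72 h 457, 298 and 525 in air and 671, 613 and 613 after phosgene. All phosgene lungs were above all air lungs, and the air lungs were the more spread. The log2 change was 0.54 ± 0.16 at 48 h, adjusted p = 0.0352, and 0.58 ± 0.17 at 72 h, adjusted p = 0.0402 (limma). Leaving out a lung kept the call in 2 of 7 cases at 48 h and 2 of 6 at 72 h. Without the 5 air lungs numbered apart the change was 0.32 at 48 h and 0.45 at 72 h, with adjusted p = 0.409 and 0.561 (limma). At 8 h Atp5e stood at -0.40, adjusted p = 0.153.

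Ndufb7 stood at 501, 491, 371 and 412 in the air lungs of 48 h against 634, 541 and 627 after phosgene, and at 422, 361 and 431 in the air lungs of 72 h against 580.2, 464 and 737. The phosgene lungs were the higher without overlap at both times. The log2 changes were 0.44 ± 0.13, adjusted p = 0.0332, and 0.52 ± 0.14, adjusted p = 0.0215 (limma). A dimmer second probe set gave 0.34 at 48 h, adjusted p = 0.0434, and 0.18 at 72 h, adjusted p = 0.499. The calls were kept in 3 of 7 and 4 of 6 leave-outs, and without the 5 air lungs numbered apart the changes were 0.26 and 0.45, with adjusted p = 0.451 and 0.451 (limma). Ndufb5 was not called at any time, with changes of -0.36 at 1 h and -0.29 at 8 h against 0.21 at 48 h and 0.34 at 72 h. At 72 h its phosgene lungs read 611, 652 and 671 and its air lungs 614, 415 and 503, which overlap.

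**Figure D4:**
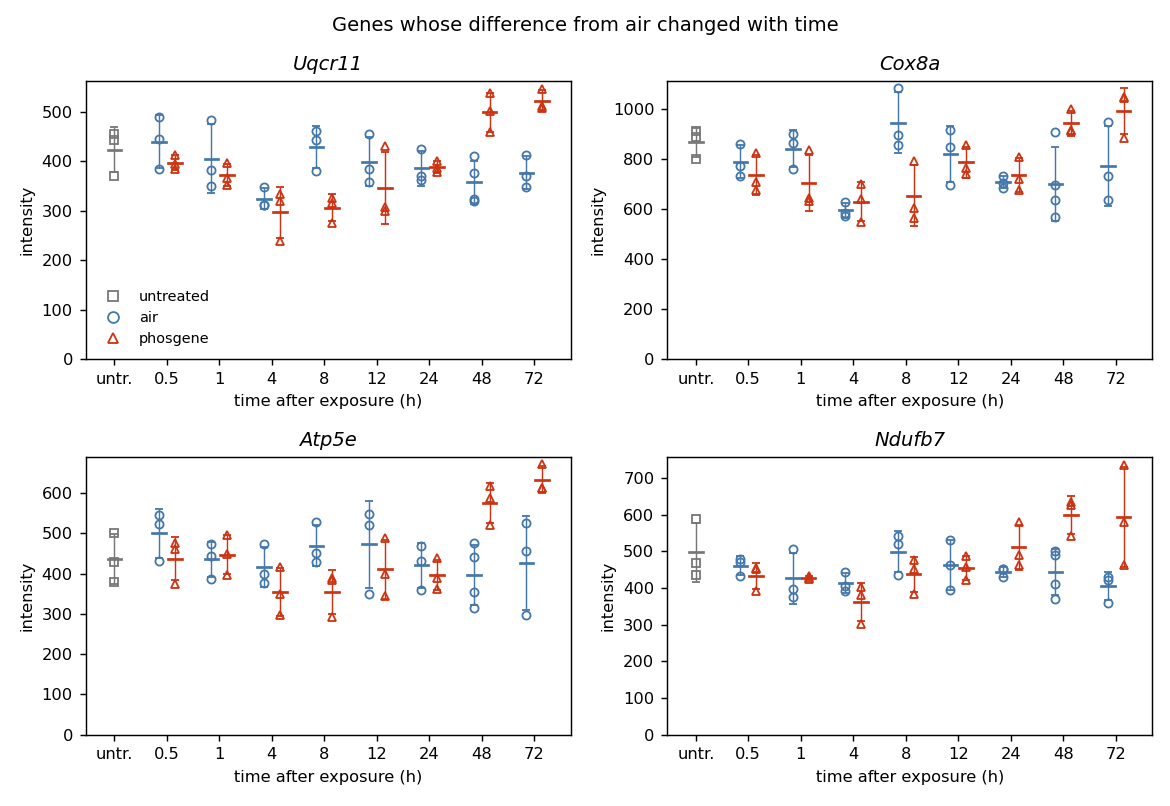
Intensity (y axis, linear, from 0) of Uqcr11, Cox8a, Atp5e and Ndufb7 in untreated (grey squares), air (blue circles) and phosgene lungs (red triangles) by time in hours (x axis, not to scale). Each point is 1 lung, bars are the group mean and error bars the SD. Phosgene lungs are the lower at 8 h for Uqcr11 and Cox8a and the higher at 48 h for all 4 genes.

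Because the difference from air changed with time for these 5 genes, their promoters are shown, as 250 bases before and 30 bases after the annotated start, read from RefSeq on mouse build GRCm38.p6 and written 5′ to 3′ along the gene. Capitals mark exact matches on either strand to the ETS motif CCGGAAG, the NRF1 letters GCGCATGC and the CCAAT box CCAAT.
Uqcr11, chr10:80406792-80407071, minus strand: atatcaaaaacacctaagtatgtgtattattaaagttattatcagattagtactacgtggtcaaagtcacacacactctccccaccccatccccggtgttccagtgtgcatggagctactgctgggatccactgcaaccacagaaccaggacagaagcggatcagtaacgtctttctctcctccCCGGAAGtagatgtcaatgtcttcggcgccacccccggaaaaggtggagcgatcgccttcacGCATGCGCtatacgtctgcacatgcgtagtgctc
Cox8a, chr19:7217587-7217866, minus strand: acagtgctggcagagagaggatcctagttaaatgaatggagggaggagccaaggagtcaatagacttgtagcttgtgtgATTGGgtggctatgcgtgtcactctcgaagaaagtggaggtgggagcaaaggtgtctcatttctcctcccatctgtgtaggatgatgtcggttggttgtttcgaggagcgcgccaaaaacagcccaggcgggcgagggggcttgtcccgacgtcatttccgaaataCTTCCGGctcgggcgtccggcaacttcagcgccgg
Atp5e, chr2:174464072-174464351, minus strand: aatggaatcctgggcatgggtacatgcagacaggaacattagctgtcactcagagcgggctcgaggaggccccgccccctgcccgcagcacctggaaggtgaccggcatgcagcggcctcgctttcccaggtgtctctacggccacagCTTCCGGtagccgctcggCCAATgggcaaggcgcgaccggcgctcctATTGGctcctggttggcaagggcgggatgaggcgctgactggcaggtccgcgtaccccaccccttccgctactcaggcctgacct
Ndufb7, chr8:83566508-83566787, plus strand: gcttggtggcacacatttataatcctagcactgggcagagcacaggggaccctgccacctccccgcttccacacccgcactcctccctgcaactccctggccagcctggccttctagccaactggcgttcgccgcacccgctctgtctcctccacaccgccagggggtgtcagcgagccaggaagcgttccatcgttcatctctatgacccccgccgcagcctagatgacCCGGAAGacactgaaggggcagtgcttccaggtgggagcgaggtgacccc
Ndufb5, chr3:32736813-32737092, plus strand: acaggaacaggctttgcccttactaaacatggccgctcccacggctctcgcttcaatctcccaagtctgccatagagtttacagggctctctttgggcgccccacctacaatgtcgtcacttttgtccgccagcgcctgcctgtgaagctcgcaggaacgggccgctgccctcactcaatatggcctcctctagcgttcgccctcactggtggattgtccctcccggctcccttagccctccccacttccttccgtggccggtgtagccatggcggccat

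The ETS letters occurred in 4 of these 5 promoters, in Uqcr11, Cox8a, Atp5e and Ndufb7. They start 66 bases before the start of Uqcr11, 5 before that of Cox8a, 102 before that of Atp5e and 20 before that of Ndufb7. Uqcr11 also held the NRF1 letters once, and Ndufb5 held none of the motifs searched, which included the YY1 letters AAGATGGC and the ERR letters AAGGTCA. A promoter was found for 73 of the 87 members. Of those 73 genes, 27.4% held the ETS letters against 9.48% of 27025 genes, 13.7% held the NRF1 letters against 2.92%, 5.48% held the YY1 letters against 2.66%, 6.85% the ERR letters against 5.1%, and 39.7% the CCAAT box against 39.7%. The YY1 and ETS letters can overlap, and a match is a description of the letters only.

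The other calls at 48 h were Ndufc1, Ndufa4 and Cox5a. Ndufc1, an accessory subunit of complex I, measured 427, 405, 340.5 and 353 in air and 537, 601 and 583 after phosgene, with no overlap and a log2 change of 0.58 ± 0.15, adjusted p = 0.011 (limma). Its second probe set gave 0.21, adjusted p = 0.494. Ndufa4, named for complex I and now counted with complex IV, measured 624, 906, 849 and 818 in air and 1130, 1131 and 1168 after phosgene, with a log2 change of 0.52 ± 0.16, adjusted p = 0.0393. The 3 phosgene lungs lay close together and well above the air lungs. Cox5a, a matrix-facing subunit of complex IV, changed by 0.39 ± 0.12, adjusted p = 0.0426, and its second probe set by 0.36, adjusted p = 0.0653. Leave-outs kept the call of Ndufc1 in 5 of 7 cases, of Ndufa4 in 1 and of Cox5a in 3. Without the 5 air lungs numbered apart Ndufc1 stood at 0.45, adjusted p = 0.113, and Ndufa4 at 0.59, adjusted p = 0.0609 (limma).

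The other calls at 72 h were Ndufb1, Cox5b and Ndufab1. Ndufb1, an accessory subunit of complex I whose probe set was dim, measured 37.5, 26.4 and 51.1 in air and 68.3, 81.5 and 76 after phosgene, a log2 change of 0.84 ± 0.21, adjusted p = 0.0132 (limma). Cox5b, a zinc-binding subunit of complex IV, measured 1047, 1208 and 1204 in air and 1782, 1600 and 2113 after phosgene, a log2 change of 0.65 ± 0.20, adjusted p = 0.0483. Its groups stood far apart, but the call was lost in each of 6 leave-outs, and the next of its 6 probe sets gave 0.33, adjusted p = 0.172. Ndufab1, the mitochondrial acyl carrier protein, changed by 0.36 ± 0.10, adjusted p = 0.0287, and its next probe set by 0.18, adjusted p = 0.721. The calls of Ndufb1 and Ndufab1 were kept in 3 and 2 of 6 leave-outs. Without the 5 air lungs numbered apart, which leaves 1 air lung at 72 h, Ndufb1 stood at 0.91, Cox5b at 0.79 and Ndufab1 at 0.25, with adjusted p = 0.225, 0.252 and 0.703 (limma).

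Other transcripts moved at the same late times. Of 18 cardiac muscle markers, 4 were lower at 48 h and 6 at 72 h, and the summed intensity of the list was 3713 to 4221 in the phosgene lungs against 4631 to 6249 in the air lungs of 48 h, and 2636 to 4495 against 5305 to 5913 at 72 h. Of 10 macrophage markers, 2 were higher at 48 h and 4 at 72 h, with sums of 8589 to 8714 against 6998 to 8584 at 48 h and 8855 to 10120 against 6422 to 9311 at 72 h. Of 12 endothelial markers, 6 were lower at 48 h and 5 at 72 h, with sums of 7581 to 8622 against 11150 to 12710 and 7090 to 8756 against 10910 to 12890. Of 4 red cell markers, 3 were lower at 48 h and 2 at 72 h, with sums of 431.8 to 530.6 against 789.2 to 1179 and 294.3 to 331.6 against 863.3 to 967.2. Of 11 neutrophil markers, 0 were called at 48 h and 1 was higher at 72 h, with sums of 1560 to 1634 against 828.6 to 1156 and 1106 to 1981 against 688.6 to 1232. Mean levels ran from 14.1 to 1203 for the cardiac genes, from 60.2 to 4604 for the macrophage genes, from 335 to 2155 for the endothelial genes, from 37.7 to 630.4 for the red cell genes and from 7.05 to 375.5 for the neutrophil genes, so none of the lists' means was at 0. The macrophage sums follow mainly Lyz2, with a mean of 4604 against 1158 for the next gene, Chil3. The red cell sums follow mainly Alas2, with a mean of 630.4 against 132.2 for the next gene, Bpgm. Of all 12393 genes, 345 were called higher and 329 lower at 48 h, and 267 and 234 at 72 h. The part of the cells marked by these lists in the member changes was not tested.

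Besides Uqcr11 and Cox8a, Sdhc was lower at 8 h. Sdhc, a membrane anchor of complex II, measured 385, 359 and 425 in air and 271, 326 and 321 after phosgene, a log2 change of -0.33 ± 0.10, adjusted p = 0.0405 (limma). The groups did not overlap, but the second probe set of Sdhc gave -0.08, adjusted p = 0.818. The call of Sdhc was kept in 3 of 6 leave-outs, and without the 5 air lungs numbered apart it stood at -0.27, adjusted p = 0.19 (limma). The count of 3 at 8 h rested on single lungs of both groups, being 1 without air replicate 3, 6 without air replicate 1 and 0 without phosgene replicate 1. Without replicate 3 of the air lungs, which is numbered apart and had the highest member level, the median change was -0.07, and without replicate 1, which had the lowest, it was -0.22. At this time 5 of 11 neutrophil markers were higher, with a summed intensity of 1580 to 4943 against 897 to 1025 in air. Of all 12393 genes, 486 were called higher at 8 h. The part of neutrophils in the member changes was not tested.

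Averaged over the 8 times, 9 members were higher after phosgene and 2 lower. That is 10.3% of the members against 9.61% of all genes higher, and 2.3% of the members against 16.5% of all genes lower. The median member change was 0.00 against -0.04 over all genes. Higher were Ndufb1, Atp5pb, Cox5a, Ndufa10, Atp5l, Ndufa2, Uqcrfs1, Ndufab1 and Atp5d, and lower were Cox4i2 and Sdhaf1. With the untreated lungs as controls none of these 11 calls was kept (limma adjusted p = 0.584 for Cox4i2 and 0.286 for Sdhaf1). The log2 change was then -0.18 for Sdhaf1, 0.26 for Atp5l, 0.18 for Ndufa10, 0.29 for Ndufb1, 0.16 for Atp5pb and -0.13 for Cox4i2. It was 0.09 for Cox5a, 0.05 for Ndufab1, 0.04 for Ndufa2, 0.01 for Uqcrfs1 and -0.087 for Atp5d. For Sdhaf1 and Atp5l this was no smaller than against air (-0.16 and 0.15). That comparison rests on the same 3 untreated lungs at all times. Averaged against them, no member was called higher, and the 1 called lower was another member.

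Cox4i2, the isoform of the first nuclear subunit of complex IV that is typical of lung, had the lowest adjusted p of the members that fell. It measured 191, 223 and 221 in air and 169, 121 and 152 after phosgene at 4 h, 220.4, 264 and 210.0 against 119, 164 and 191 at 12 h, and 197, 193 and 296 against 165, 144 and 170.4 at 72 h. The phosgene lungs were the lower without overlap at these 3 times, and at 0.5 h the means were 194 ± 14 and 196 ± 23 (SD, n = 3 each). The averaged log2 change was -0.29 ± 0.06, a 1.22-fold reduction, with adjusted p = 8.6e-05 (limma). It was kept in all 49 leave-outs but not against the untreated lungs, which read 180, 182 and 175 (adjusted p = 0.584). At no single time did it pass, the lowest adjusted p being 0.0554 at 4 h. Its partner Cox4i1, the ubiquitous isoform, had an averaged change of -0.03, adjusted p = 0.577. Of the 12 endothelial markers, all 12 were lower in the same averaged comparison, and their part in the change of Cox4i2 was not tested.

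Atp5pb, the peripheral stalk subunit b of the ATP synthase, was higher after phosgene. It measured 848, 851 and 1015 in air and 1291, 1245 and 1203 after phosgene at 24 h, and 870, 939 and 845 against 1187, 1165 and 1147 at 12 h. The groups lay apart at both times, although neither passed at a single time (adjusted p 0.114 and 0.166). The averaged log2 change was 0.25 ± 0.05, 1.19-fold, adjusted p = 0.000376, and its second probe set gave 0.14, adjusted p = 0.0076 (limma). Atp5l, subunit g of the membrane part, changed by 0.15 ± 0.05, adjusted p = 0.0129, and Atp5d, the delta subunit of the central stalk, by 0.10 ± 0.04, adjusted p = 0.0391. For Atp5d the second probe set gave 0.01 and the sign turned against the untreated lungs. Its call was kept in 31 of 49 leave-outs and lost without the 5 air lungs numbered apart (adjusted p = 0.0971).

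Ndufb1 had the largest averaged change, 0.42 ± 0.07 on the log2 scale or 1.34-fold, adjusted p = 2.26e-05. Its group means were dim, from 35.4 to 57.4 in air and from 49.2 to 75.3 after phosgene. Cox5a changed by 0.20 ± 0.04, adjusted p = 0.000726, but its second probe set by 0.09, adjusted p = 0.108. Ndufa10, an accessory subunit of the complex I membrane arm, changed by 0.18 ± 0.05, adjusted p = 0.00496, and Uqcrfs1, the Rieske iron-sulfur subunit of complex III, by 0.14 ± 0.05, adjusted p = 0.0354 (limma). Ndufa2 changed by 0.15 ± 0.06, adjusted p = 0.0462, and Ndufab1 by 0.12 ± 0.04, adjusted p = 0.00937. The second probe sets of Ndufa10 and Ndufab1 did not pass. The call of Ndufa2 was kept in 21 of 49 leave-outs and that of Uqcrfs1 in 31 of 49, and with hybridization day as a term Uqcrfs1 had adjusted p = 0.0502.

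**Figure D5:**
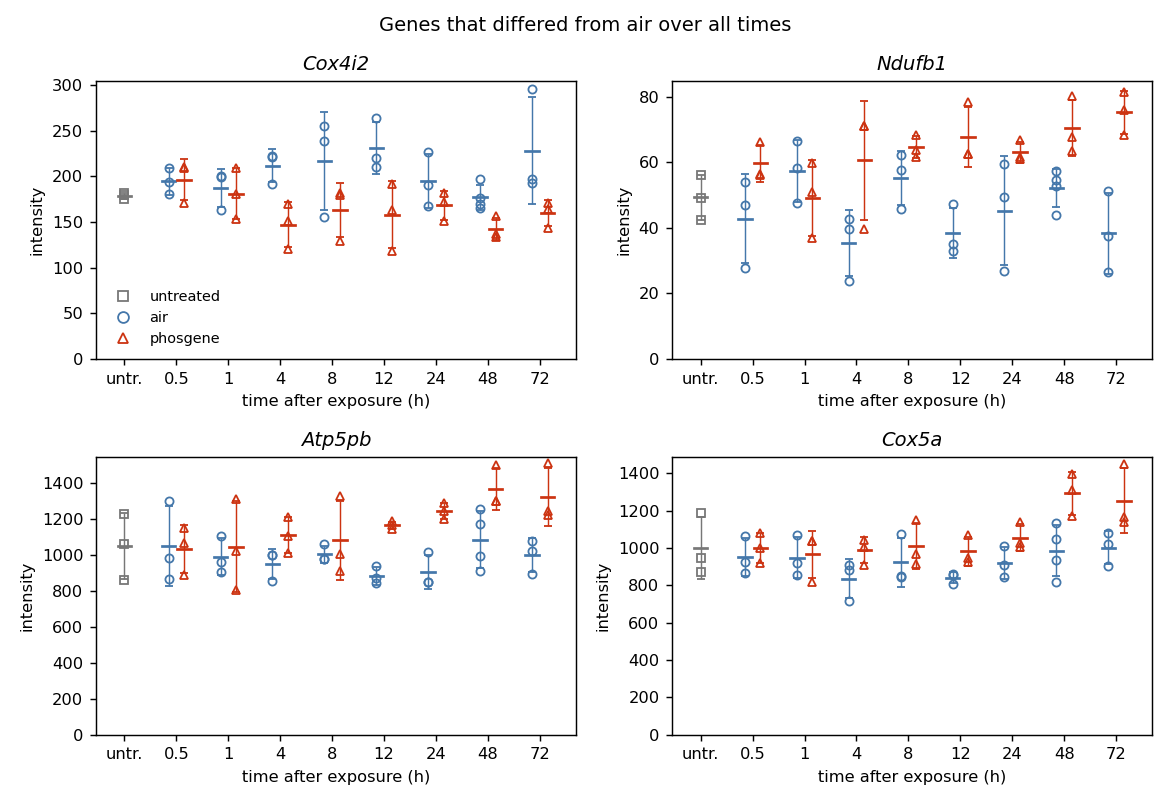
Intensity (y axis, linear, from 0) of Cox4i2, Ndufb1, Atp5pb and Cox5a in untreated (grey squares), air (blue circles) and phosgene lungs (red triangles) by time in hours (x axis, not to scale). Each point is 1 lung, bars are the group mean and error bars the SD. Cox4i2 is lower after phosgene at 4, 12 and 72 h, while the averaged changes of the other 3 genes are positive.

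Assembly factors, which help build the complexes and are not part of them, gave 1 call. Sdhaf1, which is needed to insert iron-sulfur clusters into Sdhb, had an averaged log2 change of -0.16 ± 0.04, adjusted p = 0.00666 (limma), with negative changes from -0.11 to -0.23 at all 8 times. Ndufaf4 stood at 0.12, adjusted p = 0.1, and the other 6 assembly factors at -0.14 to 0.01, none called. Of complex II, the catalytic subunits Sdha and Sdhb stood at -0.02 and 0.01 (adjusted p 0.715 and 0.94).

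The brightest members of each complex gave no call in phosgene against air. Uqcrb and Uqcrh of complex III, Cox6a1 and Cox6c of complex IV, Atp5g3 and Atp5a1 of complex V, and Ndufa1 and Ndufb9 of complex I had averaged changes of -0.09 to 0.05. Their lowest adjusted p at a single time was 0.0553, for Atp5a1 at 8 h with a change of -0.38. Uqcrc1, a core subunit of complex III, stood at -0.16, adjusted p = 0.0525, Uqcrq at 0.09, adjusted p = 0.226, and Cox8c at -0.15, adjusted p = 0.0549. Over all comparisons, 66 of the 87 members were not called in any.

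The muscle forms of complex IV were not called in any comparison with air. At 72 h Cox8b stood at -0.44 (adjusted p = 0.503), Cox7a1 at -0.37 (adjusted p = 0.374) and Cox6a2 at -0.03 (adjusted p = 0.979), while the ubiquitous forms Cox8a, Cox7a2 and Cox6a1 stood at 0.37, 0.24 and 0.10. Cox6b1 and Cox6b2, the ubiquitous and testis forms, stood at 0.32 and 0.27 at 72 h, and Cox7a2l, a supercomplex factor, at 0.12. Replicate 1 of the air lungs of 1 h stood out, with Cox8b at 270.1, Cox7a1 at 112 and Cox6a2 at 520.4, against at most 68.7, 51.5 and 218 in the other 2 lungs of its group.

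Deviations of the muscle forms from their group means were set against those of 4 marker lists over 52 lungs, in 12 relations. With 18 cardiac muscle genes, Pearson's r was 0.635 for Cox8b (permutation p = 0.00222, adjusted p = 0.0223), 0.543 for Cox6a2 (permutation p = 0.00933, adjusted p = 0.0224) and 0.526 for Cox7a1 (permutation p = 0.00661, adjusted p = 0.0223). Spearman's rho was 0.50, 0.449 and 0.412 (permutation adjusted p = 0.0301, 0.0301 and 0.0391). Without the 2 lungs farthest from the median of the markers, r was 0.537, 0.479 and 0.483. Lungs with more transcript of this list had more of each muscle form. Replicate 1 of the air lungs of 1 h was among the 2 farthest lungs for each of the 4 lists. Which tissue carried the muscle forms was not tested.

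With skeletal muscle genes r was 0.623 for Cox8b (permutation adjusted p = 0.0223) and 0.493 without the 2 farthest lungs, and with adipocyte genes it was 0.657 for Cox7a1 (permutation adjusted p = 0.0223) and 0.52 without them. For rho the adjusted permutation p was 0.0391 and 0.0301. The other 7 relations did not pass. For Cox6a2 and Cox8b with adipocyte genes, r of 0.408 and 0.462 fell to 0.0791 and 0.0405 without 2 air lungs of 1 h, and so rested on them. For Cox8b with brown adipocyte genes, r of 0.626 (permutation adjusted p = 0.156) fell to 0.212 without the same 2 lungs. The 2 chips of a lung were hybridised on different days in all 46 lungs whose days are known. The relations used the mean of both chips, and none was computed within a day.

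Air lungs were also compared with untreated lungs. Among the members, 1 was called at 12 h (1.52% of all genes) and 0 at the other times, when the share of all genes called was 0.347% at 0.5 h, 0.178% at 1 h, 0% at 4 h, 0.00807% at 8 h, 0.161% at 24 h, 0.226% at 48 h and 0.153% at 72 h. At an unadjusted p under 0.05 (limma), 26 members were lower and 2 higher at 4 h, 17 lower and 4 higher at 12 h, and 11 lower and 0 higher at 24 h. At 0.5 h there were 5 lower and 3 higher, at 1 h 0 and 1, at 8 h 1 and 3, at 48 h 3 and 4 and at 72 h 5 and 1. The median member change was -0.16 at 4 h, -0.12 at 12 h and -0.13 at 24 h, and 72 of 87 members were below 0 at 4 h. Over all genes the medians were 0.05, 0.06 and 0.04. At 48 and 72 h the member median was -0.07 and -0.09, with 60 and 65 of 87 members below 0, against 0.005 and 0.002 over all genes. At 0.5, 1 and 8 h it was -0.05, -0.0009 and -0.02. The lower members made 29.9%, 19.5% and 12.6% of the list at 4, 12 and 24 h against 4.6%, 8.08% and 3.61% of all genes, of which 8.72%, 12.9% and 5.77% were higher. At the other 5 times 2.91% to 5.71% of all genes were lower and 2.99% to 6.36% higher. All 8 comparisons share the 3 untreated lungs. The air groups of 4, 12 and 24 h hold none of the 5 air lungs whose numbers follow on those of the untreated lungs. Lung number and comparison cannot be told apart there.

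The member called was Ndufa13, also known as GRIM-19, a complex I subunit. It measured 1249, 779.8 and 1003 in untreated lungs and 607, 580.0 and 551 in air lungs of 12 h, with no overlap and a log2 change of -0.76 ± 0.20, adjusted p = 0.0402 (limma). The call was lost in 5 of 6 leave-outs. No member changed with time among the air lungs by the F test (0.96% of all genes did), where 10 members had an unadjusted p under 0.05.

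Neighbouring gene groups were counted at the times the members moved. Of 13 tricarboxylic acid cycle genes 1 was higher at 48 h and 0 at 72 h, and of 21 assembly factors outside the rule 0 were called at either. Of 12 genes of electron carriers and other entry points 0 were called at a single time. Mitochondrial ribosomal proteins, which translate the mitochondrially encoded subunits, were called higher for 5 of 74 genes at 48 h and 4 at 72 h, with medians of 0.12 and 0.16. Cytosolic ribosomal proteins were called higher for 0 of 45 at 48 h and 4 at 72 h, with medians of 0.15 and 0.19. Proteasome subunits had another timing, with 12 of 39 higher at 4 h, 14 at 8 h, 12 at 12 h, 5 at 24 h and 0 at 48 and 72 h. Among 20 regulators of mitochondrial biogenesis 0 were called at 48 or 72 h. Over all genes 2.78% were called higher at 48 h and 2.15% at 72 h, with medians of -0.02 and 0.01. Of the 12393 genes, 356 were called higher at 4 h, 486 at 8 h, 163 at 12 h and 130 at 24 h.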

How the data were processed

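Per the chip layout of the deposited table, values are linear intensity per probe set on 104 chips, scaled by the authors to 1 trimmed mean (150.03 to 150.04 when recomputed with 2% removed at each end). The sources used here name neither the software nor a genome build. Deposited chip settings, with the unit other, gave 11 hybridization days (97 chips) and 3 chip lots. Scans repeated on the same chips were not used here.

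From the deposited intensity, log2(intensity + 16) was taken and the 2 chips of a lung were averaged. Of 22690 probe sets, 691 with several symbols and 1555 with none were set aside. The brightest remaining probe set of each gene gave 12393 genes, and 46 members had more than 1. limma 3.58.1 in R 4.3.3 fitted all 17 groups together with a trend on intensity (40.4 degrees of freedom), 2-sided, adjusted by Benjamini-Hochberg over all genes, with calls under 0.05. Fold changes understate those of dim genes because of the offset. No precision beyond the number of lungs can be given for arrays. Relations used 100000 permutations within groups. The code was tested on simulated data.

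Genes named are the 3 of smallest averaged p and the 2 brightest of each complex, the 2 largest calls at each time, the largest call in air against untreated, tissue isoforms and assembly factors. Other genes named because they were called were chosen after their values were seen. Members and lists were chosen with earlier results of these data known. Ndufa4l2 and probe sets of several symbols, including those of Ndufb4 and Ndufa11, were not analysed here.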

Additional observations from a re-analysis of the deposited data

Results flagged for a closer look

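The difference between phosgene and air changed with time for 5 members by an F test in limma with Benjamini-Hochberg adjustment. The adjusted p was 0.00162 for Uqcr11, 0.0137 for Cox8a, 0.0196 for Ndufb5, 0.0234 for Atp5e and 0.048 for Ndufb7, and in each the change was below 0 at 8 h and above 0 at 48 and 72 h. Leaving out 1 lung kept the call for Uqcr11, Cox8a and Ndufb5 in 49 of 49 cases, for Atp5e in 48 and for Ndufb7 in 13. With the untreated lungs as controls, these cancel out of the test, which then compares the phosgene lungs between times. Of 15 other settings, this one included, Uqcr11 and Atp5e kept the call in 13, Cox8a in 12, Ndufb7 in 10 and Ndufb5 in 8. For Ndufb5 it was lost with median centring, the next brightest probe set, chip A alone, chip B alone, hybridization day as a term (adjusted p = 0.238), chip lot as a term and without the 5 air lungs numbered apart, which ended the call for all 5 genes.

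In the air lungs of 48 h, the only group of 4, Ndufa13 had 1 lung far from the others: replicate 3 read 775 against 884, 879 and 885. On the log2 scale with the 2 chips of a lung averaged, the scale of the test, it stood at 9.62 against 9.78, 9.80 and 9.81, and the gap took 0.858 of the range, above Dixon's 95% critical value. Of 49 genes checked this was the only one, and chance passes about 1 in 20.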

How the results depend on the processing

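Log2 medians of the members kept their sign at 48 and 72 h under all settings and within all days tried, and counts did not. The share of all genes called was not computed under these settings, so a changed count cannot be set apart from a change over all genes. The fits with day (97 chips) and lot (95 chips) used single chips with lungs as random blocks. In these 2 fits the unit and the chips changed along with the added term. Members called lower at 8 h (3) numbered 5 with quantile normalization, 1 with median centring, 6 without genes of mean intensity under 50, 1 on chip B alone, 7 with hybridization day as a term, 9 with chip lot, 6 against untreated lungs, 0 with only the 2 groups compared, 1 without the 5 air lungs numbered apart, 12 with array weights and 10 with the Gapdh 3′ to 5′ ratio as a covariate, a setting chosen after seeing the data. Members higher at 48 h (7) numbered 3 with median centring, 0 on chip A, 4 on chip B, 15 with day, 11 with lot, 0 against untreated lungs, 2 with only the 2 groups, 1 without those air lungs and 12 with Gapdh. Members higher at 72 h (6) numbered 3 on chip A, 1 on chip B, 3 with day, 1 with lot, 0 against untreated lungs, 0 with only the 2 groups, 0 without those air lungs and 11 with Gapdh, and members lower there (0) numbered 1 with Gapdh.

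Averaged over times, members higher (9) numbered 3 on chip B and 0 against untreated lungs, and members lower (2) 5 with quantile normalization, 4 without dim genes, 6 with day, 5 with lot, 1 against untreated lungs, 6 with array weights and 5 with Gapdh. An effect of phosgene that changed with time (5) was called for 2 with median centring, 2 on chip A and 3 on chip B. It was called for 13 with day, 11 with lot and 0 without those air lungs. Against untreated lungs these controls cancel, so the 17 members called there changed with time among the phosgene lungs. Where no member had been called, 1 was higher at 4 h with quantile normalization, median centring, the dim filter and array weights, and 1 lower with the dim filter and without those air lungs, 4 with day, 2 with lot, 5 against untreated lungs and 3 with array weights. At 12 h 1 was lower with lot, without those air lungs and with array weights. At 24 h 1 was higher with day, lot, array weights and Gapdh, and 1 lower against untreated lungs. Air against untreated at 12 h (1) numbered 2 with median centring and the dim filter, 0 on chip B, with day, with only the 2 groups and without those air lungs, 3 with lot and 4 with array weights, which also called 2 at 4 h and 3 at 8 h. Change with time in air (0) numbered 1 on chip A, 1 with day, 5 with lot and 8 with array weights. The cause of these shifts was not tested.

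The chip letter as a replicate block, fitted to single chips with lungs as random blocks, called 1 lower at 1 h, 1 higher and 3 lower at 4 h, 9 lower at 8 h, 1 lower at 12 h, 2 higher at 24 h, 15 higher and 1 lower at 72 h, 4 lower on average, 12 for change with time, 4 for time in air, and 4 and 1 for air against untreated at 12 and 24 h. The chip letters pair no lungs between groups, and for 56 of 104 chips the title gives another letter than the description.

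Leaving out 1 lung at a time gave 0 to 1 lower at 1 h, 0 to 1 higher and 0 to 1 lower at 4 h, 0 to 6 lower at 8 h, 0 to 1 lower at 12 h, 0 to 6 higher at 48 h, 0 to 5 higher at 72 h, 6 to 10 higher and 2 to 5 lower on average, 3 to 7 for change with time, 0 to 1 for time in air and 0 to 1 for air against untreated at 12 h. Among named genes, 1 reversed, Atp5d on average, from 0.10 to -0.087 against untreated lungs (adjusted p = 0.552). Atp5pb, Cox4i2 and Ndufb1 on average kept their calls in 14 of 15 settings and 49 of 49 leave-outs.

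The number of lungs, 3 in most groups, limits precision, and signal over background limits Ndufb1, whose probe set was dim.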

Other observations

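Of 9 genes of pyruvate entry, 1 was called higher than air at each time from 4 to 72 h and 1 lower at 8 h. Among them Pdk4, the kinase that shuts off pyruvate dehydrogenase, was higher after phosgene by 2.01 on the log2 scale at 4 h (adjusted p = 7.85e-05, limma), 1.88 at 8 h and 1.52 at 12 h, while Pdk2, a related kinase, was lower by 0.58 at 8 h (log2 change -0.58, adjusted p = 0.00781). Pcx, which carboxylates pyruvate to oxaloacetate, was higher by 0.81 at 24 h, 0.95 at 48 h and 0.69 at 72 h (adjusted p = 0.00448, 0.000105 and 0.0123). Of 15 genes of mitochondrial fatty acid oxidation, 1 was higher at 4 h, 2 at each of 8, 12 and 24 h, 1 at 48 h and 0 at 72 h, and 0 were lower. Acadl, an acyl-CoA dehydrogenase, and Eci2, an enoyl-CoA isomerase, were higher at 12 and 24 h, by 0.51 and 0.50 for Acadl and 0.69 and 0.59 for Eci2.

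Of 8 genes of coenzyme Q synthesis 1 was higher at 12 h and 1 at 72 h. Coq7, a hydroxylase of ubiquinone synthesis, was higher at 12 h (0.60, adjusted p = 0.00422) and 72 h (0.55, adjusted p = 0.00721). Of 19 mitochondrial import genes 2 were higher and 1 lower at 4 h, 1 lower at 8 h, 1 higher at 24 h and 0 called at 48 and 72 h. Tomm20, a receptor of the outer membrane import channel, was higher at 4 h (0.63, adjusted p = 0.00211) and 24 h (0.48, adjusted p = 0.0445). Cox17, the copper chaperone of complex IV assembly, was higher on average (0.23, adjusted p = 0.00907). These genes were the examples of smallest adjusted p in their lists. Of all 12393 genes, 356 were called higher and 327 lower at 4 h, 486 and 598 at 8 h, and 163 and 64 at 12 h. At 24 h 130 were higher and 116 lower, at 48 h 345 and 329, and at 72 h 267 and 234.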
